A study of Mus musculus with 4 samples.

Results

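Transcript levels of cholesterol synthesis genes and of the SREBP2 pathway that controls them were measured in endometriotic lesions of mice, with 2 Affymetrix arrays for a high-fat diet and 2 for a casein diet, the study's control. Such lesions consist of tissue like the lining of the uterus that grows elsewhere in the body, and the series title places them in an immunocompetent mouse model. The mouse strain, age, time on diet, way of inducing lesions and number of animals or lesions behind each array were not stated in the labels. P-values therefore measure only the spread between these samples, which may be technical. The genes were chosen by name: 27 symbols were listed, and all probe sets annotated to exactly 1 of these symbols were taken. Of the 27, 26 were found, out of 18193 genes with such a probe set, and Acat2, the thiolase that opens the pathway, had none in the annotation used here. Each gene is described by its brightest probe set. All 26 passed the filter on dim probe sets, a mean intensity of 33.9 over the 4 arrays, which 12797 genes passed in all.

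Cholesterol is built from acetyl-CoA through mevalonate, isoprenoid diphosphates, squalene and lanosterol. The transcription factor SREBP2, encoded by Srebf2, drives most genes of this route. When sterols in the endoplasmic reticulum are plentiful, INSIG proteins hold SREBP2 and its escort SCAP there. When sterols are scarce, the complex moves to the Golgi, where SREBP2 is cut and released to the nucleus. Cells also obtain cholesterol from lipoproteins, which is exported from lysosomes by NPC1 and NPC2.

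Most genes of the route had smaller values in lesions of mice on the high-fat diet. By sign, 22 of the 26 genes were lower, or 84.6%, where 51.4% of all tested genes were lower. The median log2 difference, high-fat diet minus casein diet, was -0.49 over the 26 genes and -0.01 over all 12797. Both high-fat diet arrays lay below both casein diet arrays for 14 of the 26, or 53.8%, against 19.3% of all genes. The largest differences, each below -1 on the log2 scale, were those of Fdps, Idi1, Msmo1 and Sqle, a size that 1.95% of all genes reached. After Benjamini-Hochberg adjustment over all 12797 genes, 0 genes (0% called) passed limma's test, with 636 at an unadjusted p under 0.05, and the adjusted p of the 26 genes lay between 0.863 and 0.925. At an unadjusted limma p under 0.05 there were 3 lower genes among the 26, Pmvk, Fdps and Msmo1, and 1 higher gene, Npc1, where 2.73% and 2.24% of all 12797 genes were lower and higher at that level. With 2 arrays against 2 an exact two-sided permutation test cannot go below 0.333.

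The 2 casein diet arrays differed from each other more than the high-fat diet arrays did. The median gap between the casein diet arrays was 0.58 log2 over the 26 genes, and that between the high-fat diet arrays was 0.10. Casein diet replicate 1 held the highest value of the 4 arrays for 22 of the 26 genes, or 84.6%, against 33.2% of all genes. It exceeded casein diet replicate 2 for 23 of the 26, or 88.5%, against 47.9% of all genes. For 19 of the 26 genes the gap between the casein diet arrays was larger than the difference between diets. A gap between 2 single arrays varies more than a difference of 2-array means. Neither this count nor the median gaps were computed over all genes. Without casein diet replicate 1, 19 of 26 genes were still lower by sign, against 53.2% of all genes, but the median difference was -0.16. Set against casein diet replicate 2 alone, both high-fat diet arrays lay lower for 15 of the 26 genes, or 57.7%, against 34.0% of all genes. Without casein diet replicate 2 the median was -0.73, and 22 of 26 genes were lower, against 49.7% of all genes.

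**Figure D1:**
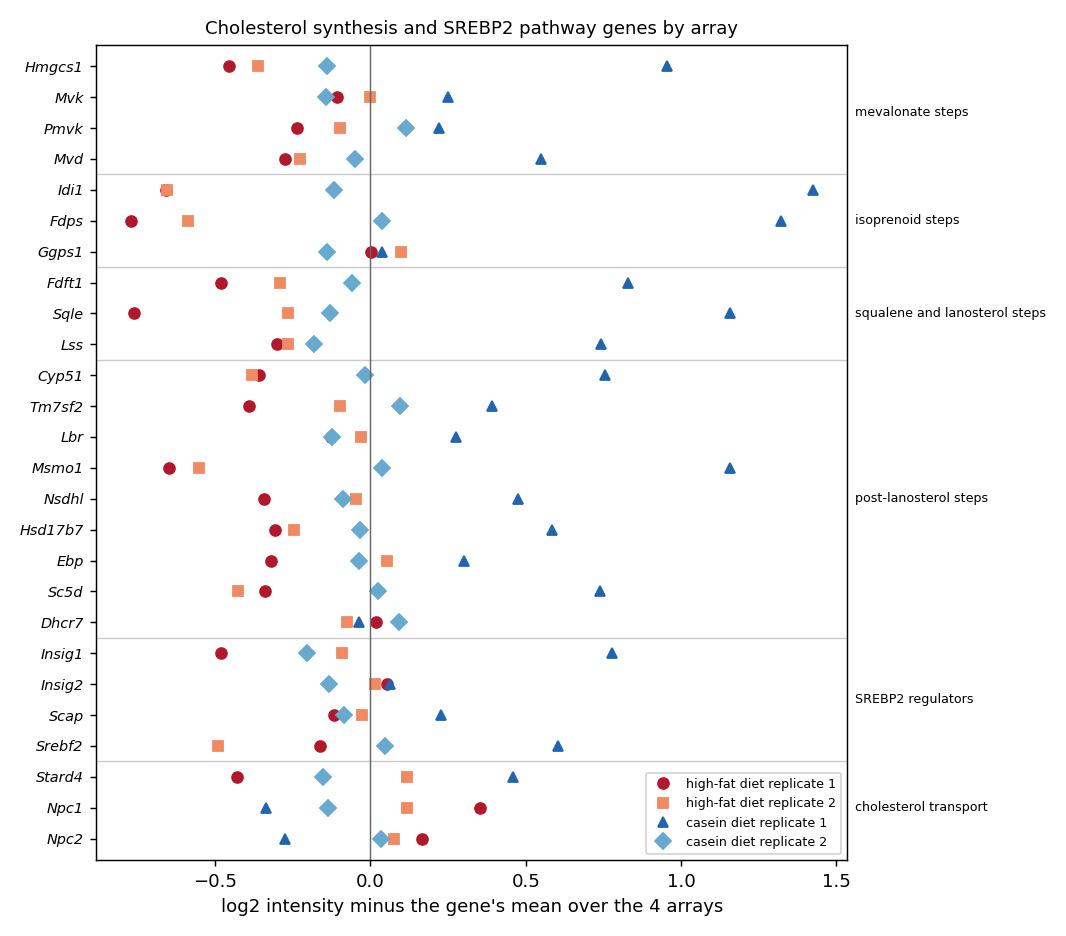
Log2 intensity of each of the 26 genes on the 4 arrays, as the deviation from that gene's mean over the arrays (x axis, log2), with genes in pathway order down the page. Casein diet replicate 1 (triangles) lies farthest right for 22 of the 26 genes, and the 2 high-fat diet arrays and casein diet replicate 2 lie closer together.

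Promoter windows are shown for the members with a match to a sterol regulatory element core, because SREBP2 acts through such elements together with the factor NF-Y. RefSeq windows of 300 bases, 250 before to 50 after the annotated start (GRCm38.p6), were found for 22 of the 27 symbols. Fdps, Fdft1, Sqle, Stard4 and Npc1 had no entry. The letters TCACNCCA, searched on both strands, occurred in 3 of the 22 genes, Msmo1, Hmgcs1 and Srebf2, or 13.6%, against 4.51% of 10252 tested genes with a window. The 3 windows follow, on the strand of each gene, and capitals mark TCACNCCA and the NF-Y box CCAAT on either strand.
Msmo1, chr8:64733529-64733828, minus strand: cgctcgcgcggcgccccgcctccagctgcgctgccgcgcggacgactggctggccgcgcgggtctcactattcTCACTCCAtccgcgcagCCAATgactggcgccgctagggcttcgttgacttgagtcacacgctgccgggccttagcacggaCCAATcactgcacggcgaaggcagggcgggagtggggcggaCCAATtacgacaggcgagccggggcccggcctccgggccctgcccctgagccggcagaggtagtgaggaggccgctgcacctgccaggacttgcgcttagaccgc
Hmgcs1, chr13:119690101-119690400, plus strand: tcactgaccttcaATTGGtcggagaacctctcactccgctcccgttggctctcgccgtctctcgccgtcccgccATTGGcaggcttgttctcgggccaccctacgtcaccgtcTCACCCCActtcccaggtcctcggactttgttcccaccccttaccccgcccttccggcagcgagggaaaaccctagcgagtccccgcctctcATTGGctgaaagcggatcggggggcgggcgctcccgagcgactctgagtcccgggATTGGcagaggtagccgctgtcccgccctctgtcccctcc
Srebf2, chr15:82147019-82147318, plus strand: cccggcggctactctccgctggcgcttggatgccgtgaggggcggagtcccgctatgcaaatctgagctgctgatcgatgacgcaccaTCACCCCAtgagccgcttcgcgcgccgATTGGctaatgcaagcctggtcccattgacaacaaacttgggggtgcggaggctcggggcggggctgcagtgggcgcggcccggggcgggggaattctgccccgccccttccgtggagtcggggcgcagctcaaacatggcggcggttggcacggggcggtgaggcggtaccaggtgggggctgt
In these windows the element core began 177 bases before the start of Msmo1, 137 before that of Hmgcs1 and 162 before that of Srebf2. The 3 genes differed by -1.20, -0.82 and -0.65 log2 between diets, and all 3 had both high-fat diet arrays below both casein diet arrays. The other 18 genes with a window and a measured value had a median difference of -0.36 and a range of -1.31 to 0.24, with 15 of them lower. Idi1, without the element core, differed more than the 3 genes with it. The NF-Y box occurred in 20 of the 22 genes, or 90.9%, against 42.2% of tested genes, and the 2 motifs do not overlap in the windows shown. The E-box letters CACGTG occurred in 5 of the 22, or 22.7%, against 11.5%. A match, or the lack of one, describes the letters of the window only.

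Of the 4 measured genes that act before or after mevalonate, up to isopentenyl diphosphate, all were lower by sign. Of these, 3 were lower with no overlap between diets, and the shares of all genes were 51.4% and 19.3%. Hmgcs1, the cytosolic HMG-CoA synthase that condenses acetyl-CoA units ahead of mevalonate, had intensities of 650.4 and 694 on the high-fat diet, against 1729.9 and 809.7 on the casein diet. Both high-fat diet arrays lay below both casein diet arrays, and casein diet replicate 1 stood well above the rest (log2 difference -0.82, SE 0.41, 95% interval -1.97 to 0.34, limma unadjusted p = 0.12). Against casein diet replicate 2 alone the difference was -0.27. Mvd, the decarboxylase that yields isopentenyl diphosphate, had 85.2 and 88.0 on the high-fat diet, against 151 and 99.4 on the casein diet, a difference of -0.50 (SE 0.24). The phosphomevalonate kinase gene Pmvk had 135 and 149 on the high-fat diet, against 185 and 172 on the casein diet. Its casein diet arrays were close, so its difference of -0.34 (SE 0.11, limma unadjusted p = 0.040) varied little with the array used, at -0.28 against replicate 2 and -0.39 against replicate 1 of that diet. Mvk, mevalonate kinase, overlapped between diets, with 97.5 and 105 on the high-fat diet, against 125 and 95.2 on the casein diet (difference -0.11, SE 0.17, or 0.09 without casein diet replicate 1). Its dimmer probe set above the filter did not overlap (-0.27, or -0.10 without casein diet replicate 1).

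The isoprenoid steps held the largest differences of the route. Fdps, which makes farnesyl diphosphate, the branch point to sterols and protein prenylation, had 59.9 and 68.0 on the high-fat diet, against 255 and 105 on the casein diet. Its 2 high-fat diet values were the lowest, and casein diet replicate 1 was over 2-fold above casein diet replicate 2 (log2 difference -1.36, SE 0.48, 95% interval -2.72 to -0.002, limma unadjusted p = 0.050). Idi1, the isomerase of isopentenyl diphosphate, had 147.1 and 147.5 on the high-fat diet, against 623 and 214 on the casein diet, a difference of -1.31 (SE 0.57). Against casein diet replicate 2 alone, Fdps and Idi1 differed by -0.72 and -0.54. Ggps1, which diverts the pathway to geranylgeranyl diphosphate for protein prenylation, did not separate the diets, with 282 and 301 on the high-fat diet, against 289 and 255 on the casein diet (0.10, SE 0.115).

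The 3 enzymes that commit farnesyl diphosphate to sterols all had both high-fat diet arrays below both casein diet arrays, as did 19.3% of all genes. Squalene synthase, encoded by Fdft1, had 287 and 327 on the high-fat diet, against 712 and 384 on the casein diet (difference -0.77, SE 0.34). Sqle, the squalene epoxidase, a rate-limiting enzyme of the sterol branch, had 124 and 175 on the high-fat diet, against 470 and 192 on the casein diet (-1.03, SE 0.51). For Sqle, high-fat diet replicate 2 and casein diet replicate 2 were close, and casein diet replicate 1 stood apart. Lss, lanosterol synthase, had 93.9 and 96.3 on the high-fat diet, against 194 and 102 on the casein diet (-0.56, SE 0.35). Without casein diet replicate 1 the differences were -0.33 for Fdft1, -0.38 for Sqle and -0.10 for Lss.

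Of the 9 enzymes between lanosterol and cholesterol, all were lower by sign and 5 were lower with no overlap, against 51.4% and 19.3% of all genes. Msmo1, the methylsterol monooxygenase, differed most, with 135 and 144 on the high-fat diet, against 470 and 216 on the casein diet (log2 difference -1.20, SE 0.42, 95% interval -2.38 to -0.02, limma unadjusted p = 0.048). Its difference was -0.64 against casein diet replicate 2 alone and -1.76 against casein diet replicate 1 alone. The desaturase gene Sc5d had 158 and 149 on the high-fat diet, against 334 and 203 on the casein diet (-0.76, SE 0.28). Cyp51, the lanosterol demethylase, had 193 and 190.2 on the high-fat diet, against 418 and 245 on the casein diet (-0.74, SE 0.29). For these probe sets of Sc5d and Cyp51 the high-fat diet arrays lay close together and below casein diet replicate 2 as well, by 0.41 and 0.35 on average. A dimmer Sc5d probe set above the filter had high-fat diet arrays far apart, at 38.8 and 94.7, against 121 and 98.1 on the casein diet. Hsd17b7, a sterol ketone reductase, had 79.2 and 82.7 on the high-fat diet, against 147 and 95.8 on the casein diet (-0.55, SE 0.24). Tm7sf2, a sterol reductase of the endoplasmic reticulum, had 57.0 and 69.7 on the high-fat diet, against 97.9 and 79.8 on the casein diet (-0.49, SE 0.17).

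The other 4 enzymes after lanosterol overlapped between diets. Nsdhl, a sterol dehydrogenase, had 154 and 189 on the high-fat diet, against 271 and 183 on the casein diet (-0.39, SE 0.25). Ebp, the sterol isomerase, had 380.3 and 492 on the high-fat diet, against 584 and 463 on the casein diet (-0.27, SE 0.20). In both genes high-fat diet replicate 2 exceeded casein diet replicate 2. Lbr, a nuclear envelope protein that can catalyse the same reduction as Tm7sf2, had 820.4 and 877 on the high-fat diet, against 1085 and 823 on the casein diet (-0.16, SE 0.17). Dhcr7, which reduces 7-dehydrocholesterol to cholesterol, was the most even, with 201 and 189 on the high-fat diet, against 194 and 212 on the casein diet (-0.06, SE 0.105, 95% interval -0.36 to 0.24).

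**Figure D2:**
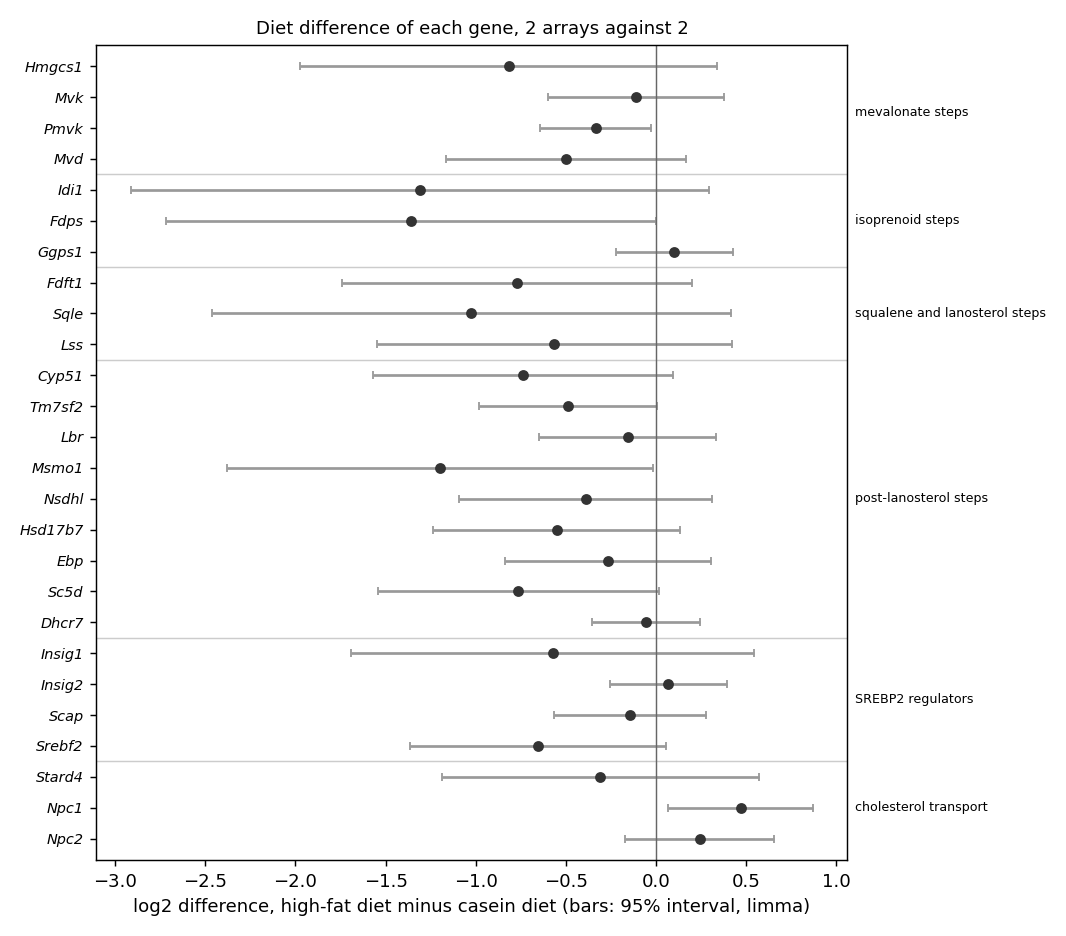
Log2 difference of each gene, high-fat diet minus casein diet (x axis), with limma's 95% interval as bars, 2 arrays in each diet. Of 26 genes 22 lie left of 0, and the interval leaves out 0 for Pmvk, Fdps, Msmo1 and Npc1.

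Among the regulators, the gene of the transcription factor itself was lower and its partners were uneven. Srebf2 had 135 and 108 on the high-fat diet, against 230.4 and 157 on the casein diet. The diets did not overlap (log2 difference -0.65, SE 0.25, 95% interval -1.36 to 0.06, limma unadjusted p = 0.062), and against casein diet replicate 2 alone the difference was -0.38. Insig1, itself a target of SREBP2, had 121 and 159 on the high-fat diet, against 290.0 and 147 on the casein diet. High-fat diet replicate 2 was above casein diet replicate 2, so its difference of -0.57 (SE 0.39) was -0.08 without casein diet replicate 1. Insig2, the second retention protein, had 325 and 317 on the high-fat diet, against 327 and 286 on the casein diet (0.07, SE 0.11). Scap, the escort protein, had 396 and 421 on the high-fat diet, against 503 and 405 on the casein diet (-0.14, SE 0.15, or 0.01 without casein diet replicate 1).

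Of the genes of lysosomal cholesterol export, both had positive differences, and neither passed the adjusted test (limma adjusted p = 0.863 for each). Npc1, the membrane transporter of that step, had 317 and 270 on the high-fat diet, against 197 and 226 on the casein diet, with no overlap (log2 difference 0.47, SE 0.14, 95% interval 0.07 to 0.87, limma unadjusted p = 0.032). Npc2, the soluble protein that hands cholesterol to NPC1, had 5887 and 5536 on the high-fat diet, against 4337 and 5373 on the casein diet (0.24, SE 0.15, or 0.09 without casein diet replicate 1). These were the 2 genes of the 26 with both high-fat diet arrays above both casein diet arrays, or 7.69%, against 16.6% of all genes. Casein diet replicate 1 was the lowest array for both. Stard4, a cytosolic sterol carrier that SREBP2 activates, followed the synthesis genes by sign, with 126 and 184 on the high-fat diet, against 234 and 153 on the casein diet (-0.31, SE 0.31, or -0.005 without casein diet replicate 1).

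**Figure D3:**
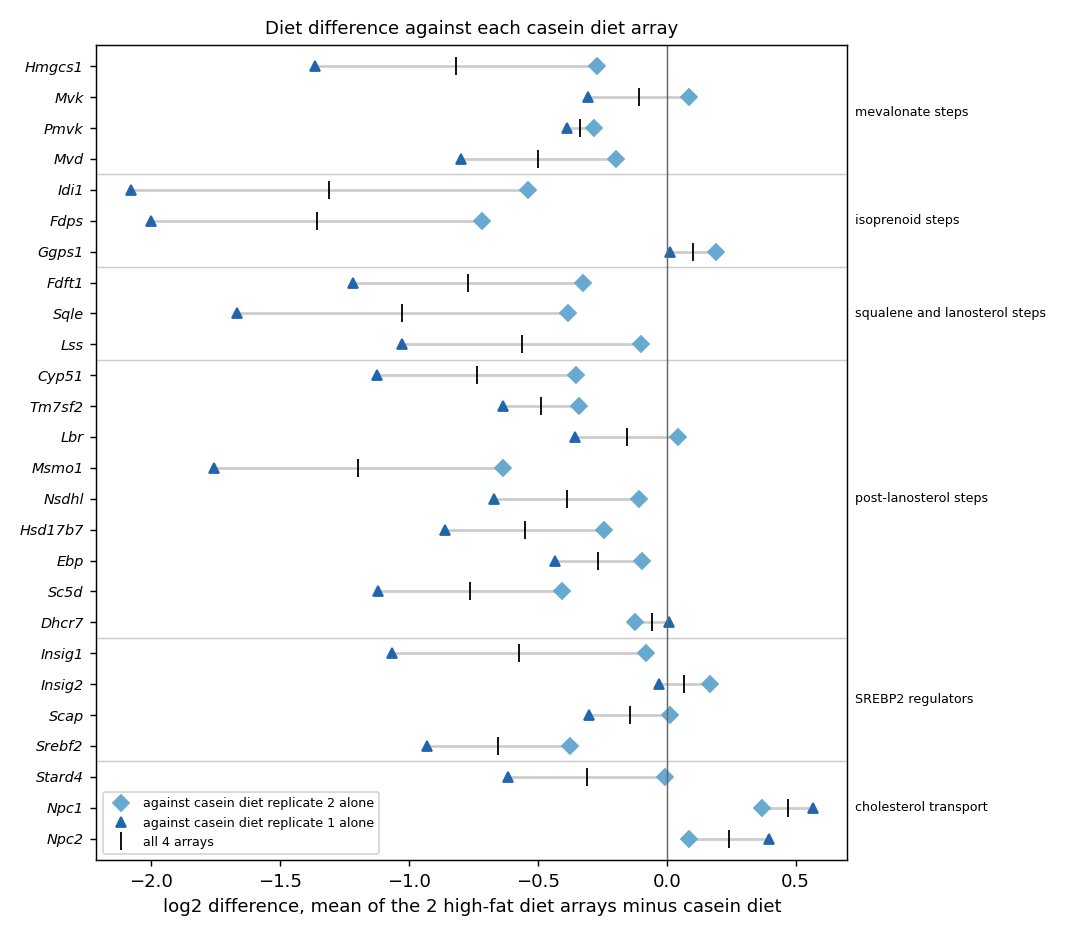
Log2 difference of the mean of both high-fat diet arrays from casein diet replicate 1 alone (triangles), from casein diet replicate 2 alone (diamonds) and from both (bars), for each gene. Against casein diet replicate 2 alone 19 of 26 genes lie left of 0 with a median of -0.16, and against casein diet replicate 1 alone 22 lie left with a median of -0.73.

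Several genes were read by more than 1 probe set. In all there were 59 probe sets for the 26 genes, and 49 reached the intensity filter. Of these, 41 were lower on the high-fat diet and 28 were lower with no overlap between diets. The same shares were not computed over all probe sets. Over all genes, by the brightest probe set, they were 51.4% and 19.3%. Of the 14 genes with several probe sets above the filter, 12 had the same sign in all of them. The exceptions were Ggps1, where the brightest gave 0.10 and the others -0.08 to -0.10, and Insig2, with values of -0.05 to 0.07. The 4 probe sets of Hmgcs1 above the filter gave -0.78 to -0.97, those of Idi1 -1.31 and -1.23, and those of Srebf2 -0.65 and -0.37. The brightest probe sets of Hmgcs1, Fdft1, Hsd17b7, Mvd and Lss are of a kind that can also bind related transcripts. Their unique or otherwise designed probe sets above the filter had the same sign, for example -0.76 for Fdft1, -0.71 for Lss and -0.66 for Mvd. Probe sets of 1 gene share RNA and are not replicates of a diet.

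**Figure D4:**
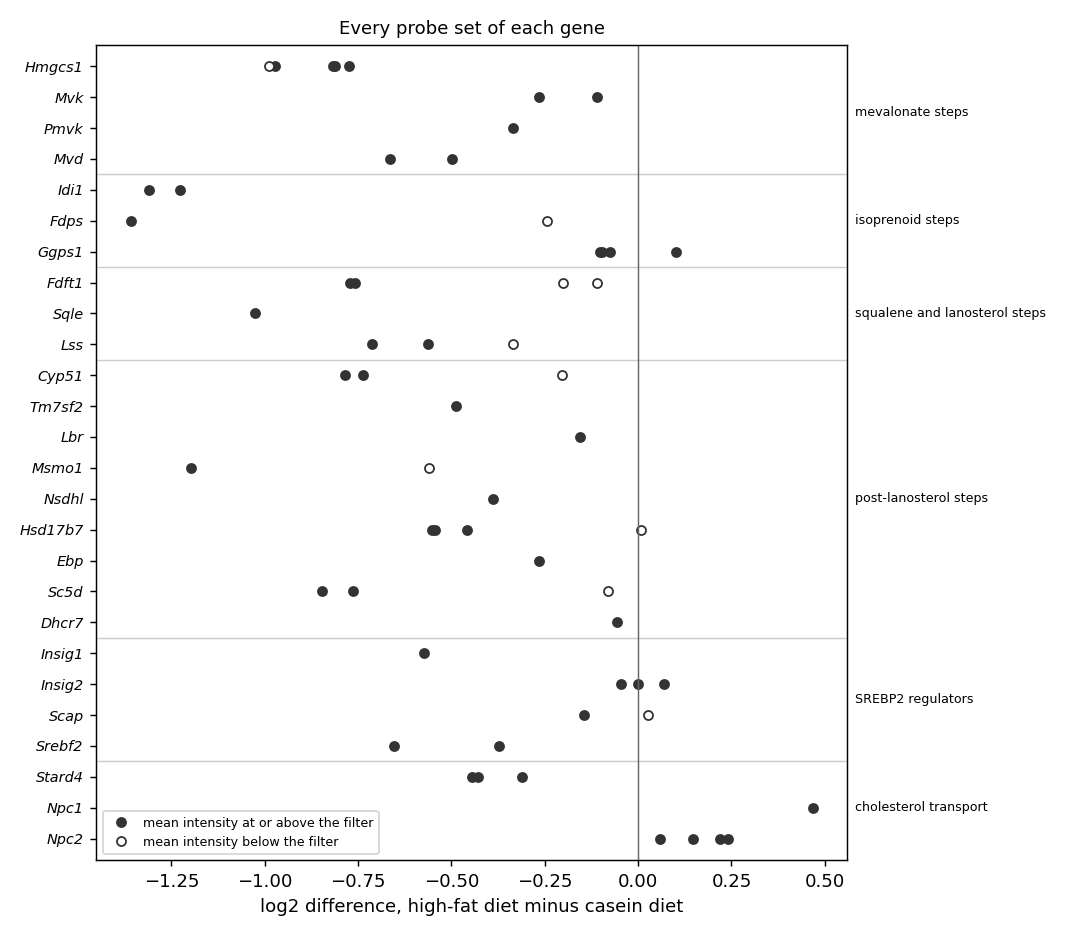
Log2 difference, high-fat diet minus casein diet (x axis), of all 59 probe sets of the 26 genes, filled where the mean intensity reached the filter and open where it did not. Of the 49 filled points 41 lie left of 0, a share not computed over all probe sets, and those of Npc2 and Npc1 lie right of it.

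Other genes linked to the pathway were taken from lists and are given by counts, since none of them passed the test. Of 12 genes of the isoprenoid branch that does not lead to sterols, 10 were lower by sign, against 51.4% of all genes. Their median was -0.04, and with single arrays left out 7 to 9 of the 12 were lower. In this branch Nus1 and Pdss2, which act in dolichol and ubiquinone synthesis, differed by -0.20 (SE 0.12) and -0.34 (SE 0.20). Leaving out casein diet replicate 1 gave -0.12 and -0.10 for them. Of 15 genes that process SREBP or sense sterols, 8 were lower, against 51.4% of all genes, with a median of -0.06. Srebf1, the gene of the related factor SREBP1, was among them, with 420 and 437 on the high-fat diet, against 494 and 410 on the casein diet (-0.07, SE 0.13). The exception in size was Mylip, an LXR-induced ubiquitin ligase that removes lipoprotein receptors, with 1087 and 1056 on the high-fat diet, against 625 and 718 on the casein diet (0.68, SE 0.12, higher in both arrays, limma adjusted p = 0.856). Of 4 electron donor genes of the sterol enzymes, 2 were lower, against 51.4% of all genes, with a median of -0.03. LXR is the oxysterol-sensing receptor that induces cholesterol efflux genes.

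Fatty acid synthesis genes, which SREBP1 controls, were lower by sign in 10 of 14, against 51.4% of all genes, with a median of -0.15. Of the 14, 3 did not overlap between diets, a share near the 19.3% of all genes. Without casein diet replicate 2, 7 of 14 were lower with a median of -0.001. Fasn, the fatty acid synthase, differed by -0.34 (SE 0.17), the acetoacetyl-CoA synthetase gene Aacs by -0.40 (SE 0.20) and the elongase gene Elovl6 by -0.46 (SE 0.24). Aacs and Elovl6 were -0.15 and -0.18 without casein diet replicate 1, and Fasn was -0.15 without high-fat diet replicate 1. Genes of LXR targets and cholesterol efflux lay on the opposite side, with 10 of 11 higher, a median of 0.72 and 9 higher with no overlap, against 48.6% and 16.6% of all genes. The cholesterol exporter gene Abcg1 had 1109 and 1037 on the high-fat diet, against 548 and 558 on the casein diet (0.95, SE 0.10, limma adjusted p = 0.849), and it was 0.94 when casein diet replicate 1 was left out. Of 17 genes of intracellular cholesterol transport and esterification, 12 were higher, against 48.6% of all genes, with a median of 0.18 that was 0.03 without casein diet replicate 1. Among them were Nceh1, a cholesteryl ester hydrolase (0.48, SE 0.16), and the lysosomal membrane gene Lamp1 (0.25, SE 0.12), which were 0.31 and 0.16 without that array. The other 5 genes were lower, among them Osbpl2 with no overlap (-0.39, SE 0.20, or -0.20 without that array). Differences between these lists and the cholesterol synthesis genes were not tested.

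The tissue markers did not stay level across the arrays. Stromal and uterine markers were present on every array, and all 9 passed the filter. They summed to 27434 and 27106 on the high-fat diet, against 23988 and 28047 on the casein diet, lowest in casein diet replicate 1. They did not share a direction: the progesterone receptor gene Pgr differed by -0.39 (SE 0.09), and Pdgfra, Pdgfrb and Hoxa11 by 0.61, 0.59 and 0.76, values that were 0.41, 0.33 and 0.20 without casein diet replicate 1. The summed intensity of 7 gastric surface markers was 375 and 397 on the high-fat diet, against 71970.0 and 10401 on the casein diet. All 7 were lower with no overlap, against 19.3% of all genes. Gkn2, a defining gene of that list, had 22.3 and 17.4 on the high-fat diet, below the intensity filter, against 14933 and 2548 on the casein diet. Gkn1 was also below it on the high-fat diet, at 25.1 and 26.6. Both genes passed the filter only through the casein diet arrays, so their direction was fixed by it. Muc5ac, at 34.9 and 30.5 on the high-fat diet, lay at the filter. The count of 7 gastric markers therefore rests in part on the filter. The sum of 7 intestinal markers, of which 3 passed the filter, was 180 and 217 on the high-fat diet, against 3748 and 303 on the casein diet. Of these 3, Vil1 was below the filter on the high-fat diet, at 14.8 and 17.1, so its direction was also fixed. The 7 epithelial markers summed to 3957 and 7563 on the high-fat diet, against 22733 and 8696 on the casein diet, and 6 of them peaked in casein diet replicate 1. Skeletal muscle markers summed to 21822 and 701 on the high-fat diet, against 575 and 836 on the casein diet, so high-fat diet replicate 1 stood apart in them. Hepatocyte markers, of which 3 passed the filter, summed to 102 and 188 on the high-fat diet, against 891 and 160.2 on the casein diet. The cholesterol synthesis genes were highest in the array with the highest gastric, intestinal, epithelial, hepatocyte and proliferation markers. The part of these markers in the diet difference was not tested. In bulk tissue, fewer cells of a type and less RNA per cell cannot be told apart.

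High-fat diet replicate 2 and casein diet replicate 2 lacked the highest muscle, gastric and epithelial signals, but they also differed in other tissue markers. Gastric markers were higher in casein diet replicate 2, and adipocyte markers, of which 1 of 3 on the array passed the filter, summed to 63.9 and 425 on the high-fat diet, against 166 and 124 on the casein diet, highest in high-fat diet replicate 2. Between these 2 arrays alone, a comparison chosen after the data were seen and with no test, 15 of 26 genes were lower on the high-fat diet, or 57.7%, against 50.2% of all genes, and the median was -0.15. Fdps, Msmo1, Srebf2 and Idi1 differed by -0.63, -0.59, -0.54 and -0.54 there. Insig1, Stard4 and Nsdhl had positive differences of 0.11, 0.27 and 0.04. Proliferation markers summed to 2604 and 2054 on the high-fat diet, against 2825 and 1936 on the casein diet, and macrophage markers to 20935 and 16930.1, against 17596 and 18321.

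**Figure D5:**
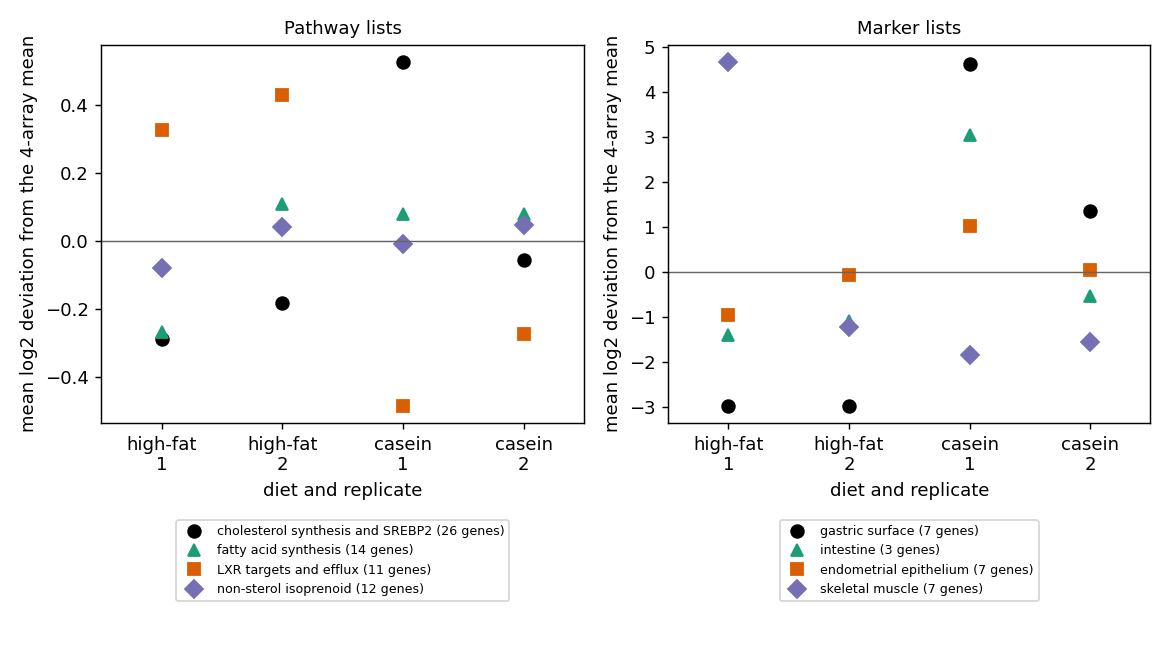
Mean log2 deviation from the 4-array mean (y axis) on each array for pathway lists (left) and marker lists (right). The cholesterol synthesis and SREBP2 genes lie at -0.29 and -0.18 on the high-fat diet, against 0.53 and -0.06 on the casein diet, and gastric markers at -2.98 and -2.98, against 4.62 and 1.34.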

How the data were processed

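Per the labels' protocols, total RNA was purified with the PicoPure kit, and 0.1 µg was used to make biotin-labelled aRNA. The intensity values deposited by the authors are on a linear scale, with array medians of 55.1 to 56.5. GCOS and RMA are named per the submitters' processing notes, without order or version, and which step set the scale is not given in the sources used here. Log2 was taken without a pseudocount. Scan dates were not used here, so no batch could be tested.

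Of 45101 probe sets, 34945 had 1 gene symbol, 932 several, 9160 none and 64 were controls. Among probe sets with 1 symbol, the brightest by mean log2 stood for its gene, and genes below the 40th percentile of non-control probe sets were left out. Both diets, grouped by sample title, were compared over 12797 genes with limma 3.58.1 in R 4.3.3 (lmFit, eBayes, two-sided, Benjamini-Hochberg), after the code was tested on simulated data. SE is limma's moderated standard error. The alternatives tried are listed in the closing section. Members and lists were chosen with earlier results of these data known. All 26 measured members are named, and of each other list only genes among the 4 smallest p. Srebf1 falls outside that rule and was chosen after its values were seen. Figures were drawn with matplotlib 3.10.9.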

Additional observations from a re-analysis of the deposited data

How the results depend on the processing

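Results were recomputed with quantile normalisation, median centring, no filter, a filter at the 60th percentile, the mean or the second-brightest of a gene's probe sets, a pseudocount of 16, an intensity trend, a robust prior, array weights, the replicate number as a block, and each array left out. The replicate block gave 0 genes past the test, 22 lower members and a median of -0.49, and changed no call. Same-numbered arrays did not deviate together (r = -0.02). With single arrays left out, genes past limma's test ranged from 0 to 17, lower members from 19 to 22, members lower with no overlap from 15 to 22 and the median from -0.73 to -0.16. The 17 genes came without casein diet replicate 2 and held none of the members. Leaving out 1 casein diet array assumes that the lone array varies like the others. With any array left out, the count of members lower with no overlap can only stay at 14 or rise. Its range was therefore fixed in direction and does not check the count from all arrays. The matching share of all genes was computed only without casein diet replicate 1, at 34.0%, against 57.7% of the members. Between high-fat diet replicate 2 and casein diet replicate 2 alone, an alternative chosen after seeing the data, the median was -0.15.

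With the mean and the second-brightest of a gene's probe sets, 25 and 23 members passed the filter. Fdps dropped out of both, and Msmo1 and Scap out of the second, so those settings do not check them. Pmvk, Sqle, Tm7sf2, Lbr, Nsdhl, Ebp, Dhcr7, Insig1 and Npc1 have 1 probe set each. Both settings kept that probe set, so the differences of these genes stayed the same and were not checked either. Ggps1 was -0.043 with the mean of probe sets and -0.10 with the second-brightest, where Insig2 was -0.046. With single arrays left out, Mvk ranged from -0.31 to 0.087, Lbr from -0.36 to 0.044, Scap from -0.30 to 0.013, Dhcr7 from -0.12 to 0.0080 and Insig2 from -0.029 to 0.17. Between the arrays of replicate 2 alone, Mvk, Lbr, Nsdhl, Ebp, Insig1, Scap and Stard4 were 0.14, 0.092, 0.042, 0.088, 0.11, 0.057 and 0.27. The cause was not tested. Without casein diet replicate 1, 20 of 26 differences shrank by over 1.5 times or changed sign, a count not made over all genes. Outside this count, those of Ggps1, Dhcr7 and Insig2 grew in size, to 0.19, -0.12 and 0.17. The number of arrays limits the precision.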
